A study of Mus musculus with 26 samples.

Results

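Heme synthesis and iron handling were followed through 32 genes in blood stem and progenitor cells of the mouse. The genes were listed by role and not by their values: the enzymes of heme synthesis, the mitochondrial carriers and iron-sulfur assembly proteins, iron uptake and export, heme transport, ferritin, heme breakdown and the iron sensors. All 32 were measured, among 19938 named genes, with 1 probe set per gene (of several, that with the highest average signal). The 26 Affymetrix Mouse Gene arrays hold RNA of cells sorted from bone marrow of Gata1-EGFP Tg/+ mice aged 8 to 15 weeks, so every group carries a transgenic reporter of Gata1, a transcription factor that red cells, platelets, mast cells and eosinophils need to form. The labels give neither the construct of the reporter nor the number of mice pooled, and do not say that replicates are different mice, so the spread that p-values measure may be technical.

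The 8 groups are defined by sorting gates. Stem cells (HSC GFP-, 3 arrays) were Lin-, cKit+ and Sca1+ with CD150, without Flt3 and without reporter signal. Lymphoid-primed multipotent progenitors (LMPP, 4 arrays) shared the first 3 of these markers and were CD150- and Flt3 high, again without reporter signal. Common lymphoid progenitors (CLP, 3 arrays) were Flt3+ and IL-7Ra+ with low Sca1 and cKit and no B220. The remaining groups were Lin-, cKit+, Sca1- and CD41-. Of these, granulocyte-macrophage progenitors carried FcgRII/III and were split by the reporter (GMP GFP-, 4 arrays, and GMP GFP+, 3 arrays). Pre-granulocyte-macrophage progenitors lacked FcgRII/III, CD150 and CD105 and were split the same way (PreGM GFP- and PreGM GFP+, 3 arrays each). Pre-megakaryocyte-erythroid progenitors (PreMegE, 3 arrays) lacked FcgRII/III and CD105 and carried CD150. The labels name no reporter gate for PreMegE or CLP. Reporter-positive stem cells, also named in the study's design, are not analysed here.

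Heme is built from glycine and succinyl-CoA in a chain of enzymes that begins and ends in the mitochondrion. The first step is made by ALAS1 in most cells and by its isozyme ALAS2 in erythroid cells, and it limits the rate of the chain. Cells take up iron as transferrin through the transferrin receptors, reduce it and move it out of the endosome through DMT1 (Slc11a2), store it in ferritin and export it through ferroportin (Slc40a1). Iron regulatory proteins bind stem-loops in the transcripts of ferritin, Tfrc, Alas2, Slc11a2 and Slc40a1 and so change their translation or decay, and translation cannot be seen in these RNA data.

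The 250 bases before the transcription start are shown for the isozymes of the first step, one of which varied most among the 32 genes and the other little, and for Cpox, a later enzyme of the same chain. Promoters were taken from RefSeq (GRCm38.p6) by gene symbol, which gave 39 start sites for 24 of the 32 genes. Fech, Slc25a37, Slc11a2, Slc40a1, Slc48a1, Hmox1, Tspo and Iscu had no window, so the motif was not searched in them. A chromosome was left out of the search of the heme and iron genes, so a gene without a window may still have a promoter entry there. Of these, Slc11a2 and Slc40a1 were called in the PreGM reporter comparison. Sequences run 5′ to 3′ on the strand of the gene. Capitals mark the GATA motif, searched with A first as AGATAA or AGATAG and with T first as TGATAA or TGATAG, on both strands, where matches may overlap.
Alas1, chr9:106247955-106248204, minus strand: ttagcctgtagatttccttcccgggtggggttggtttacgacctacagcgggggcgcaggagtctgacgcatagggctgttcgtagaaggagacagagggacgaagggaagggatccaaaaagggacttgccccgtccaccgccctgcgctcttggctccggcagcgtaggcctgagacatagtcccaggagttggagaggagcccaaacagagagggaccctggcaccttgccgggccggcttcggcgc
Alas2, chrX:150547167-150547416, plus strand: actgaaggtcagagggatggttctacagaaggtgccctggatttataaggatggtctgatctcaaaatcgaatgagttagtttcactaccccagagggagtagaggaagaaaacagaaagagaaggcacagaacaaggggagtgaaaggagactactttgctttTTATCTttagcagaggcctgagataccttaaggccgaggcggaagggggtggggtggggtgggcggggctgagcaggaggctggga
Cpox, chr16:58669958-58670207, plus strand: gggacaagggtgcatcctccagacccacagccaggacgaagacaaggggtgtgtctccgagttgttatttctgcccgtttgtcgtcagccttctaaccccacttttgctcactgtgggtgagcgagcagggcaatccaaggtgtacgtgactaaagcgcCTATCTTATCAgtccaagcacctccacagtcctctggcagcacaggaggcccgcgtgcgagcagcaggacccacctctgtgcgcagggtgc

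The Cpox window holds a pair of overlapping matches, which begin 91 and 86 bases before the start, and the Alas2 window holds 1, which begins 86 bases before it. None of these letters is in the Alas1 window, nor in that of its other start site. Blvrb and Tfr2, both higher in reporter-positive cells of both gates, each have 1 match in the window of 1 of their other start sites, shown with 12 bases on each side.
Blvrb, chr7:27452210-27452239, plus strand: aaccagatcttcTGATAGagccacaagggc
Tfr2, chr5:137570902-137570931, plus strand: gcctgtcagggcTGATAAggggccctctag
The motif was also in a window of Uros and of Hmox2, with 2 matches each, and of Steap3, with 1; none of these genes was called in a reporter comparison. The chromosome left out in the search of the heme and iron genes was kept in the windows of all promoters. Over the 39 windows of the heme and iron genes 7 held the motif, which is 17.9%, against 26.5% of 32851 windows of all promoters. The E-box CACGTG, bound by MYC and related factors, was in 10.3% of their windows against 6.0% of all. These were 4 windows of 3 genes, with Alad counted in both of its overlapping windows. The antioxidant response element, searched as TGACNNNGC, was in 7.7% against 10.2%. A match describes the sequence and is not evidence of binding.

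Values are log2 signals. Signals under the median of all values, 6.61, were not shown to exceed background, so a difference from such a mean is one of signal and may not equal that of RNA. Gata1 had means of 8.48 in PreGM GFP+, 8.08 in GMP GFP+ and 8.47 in PreMegE, and of 6.31 to 6.73 in the other groups. It was thus higher in both groups sorted as reporter-positive than in those sorted as negative, and the labels give no reporter status for PreMegE and CLP. The erythroid markers, 14 measured genes, had a mean log2 signal of 7.71 to 8.41 in the arrays of PreGM GFP+, GMP GFP+ and PreMegE, and 6.22 to 6.71 in the others. Globin probe sets name several genes each and were not used. In sorted bulk samples, fewer cells of a type and less RNA per cell cannot be told apart.

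The 8 groups differed in 12 of the 32 heme and iron genes by limma's moderated F test (Benjamini-Hochberg adjusted p under 0.05), against 15.2% of all genes tested. These were Alas1, Urod and Cpox of heme synthesis, Glrx5 and Abcb10 of the mitochondrion, the transferrin receptors Tfrc and Tfr2, the iron transporters Slc11a2 and Slc40a1, the heme transporters Abcg2 and Slc48a1, and Blvrb of heme breakdown. Group means spanned most in Alas1 (3.61), Tfrc (2.83) and Abcg2 (2.20), each with a different group at the top. They spanned least in the ferritin heavy chain gene Fth1 (0.31). The median span was 0.70 over the 32 genes and 0.40 over all genes.

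**Figure D1:**
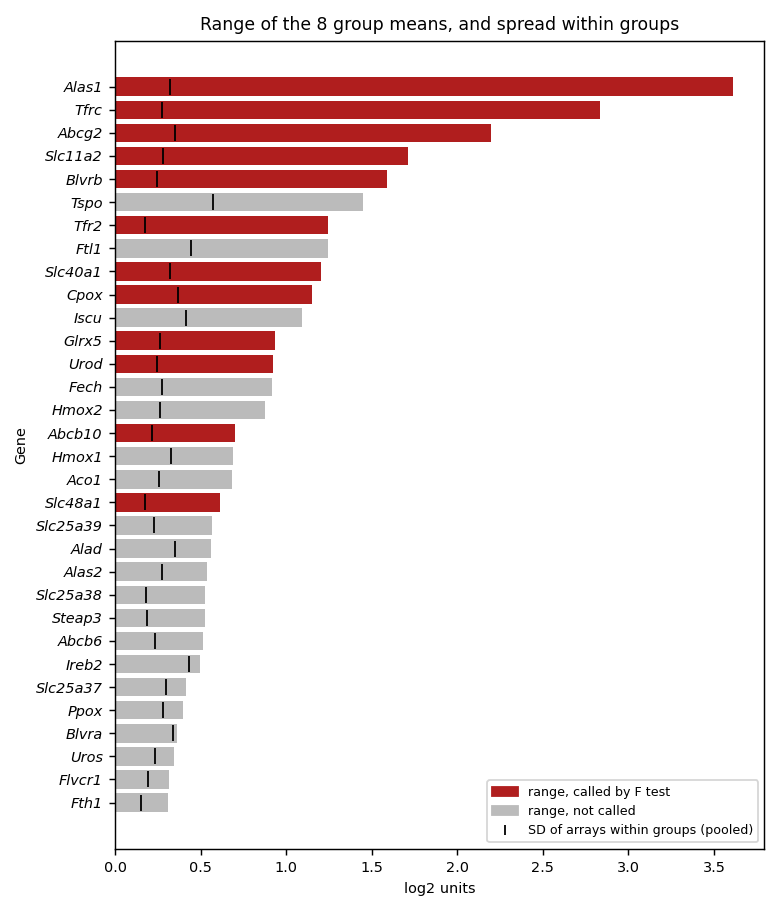
Range of the 8 group means of each gene (bars, log2 units), with the pooled SD of arrays within groups (black ticks); red bars mark genes called by the moderated F test. Alas1, Tfrc and Abcg2 span 3.61, 2.83 and 2.20, and Tspo spans 1.45 with an SD of 0.57 and was not called.

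**Figure D2:**
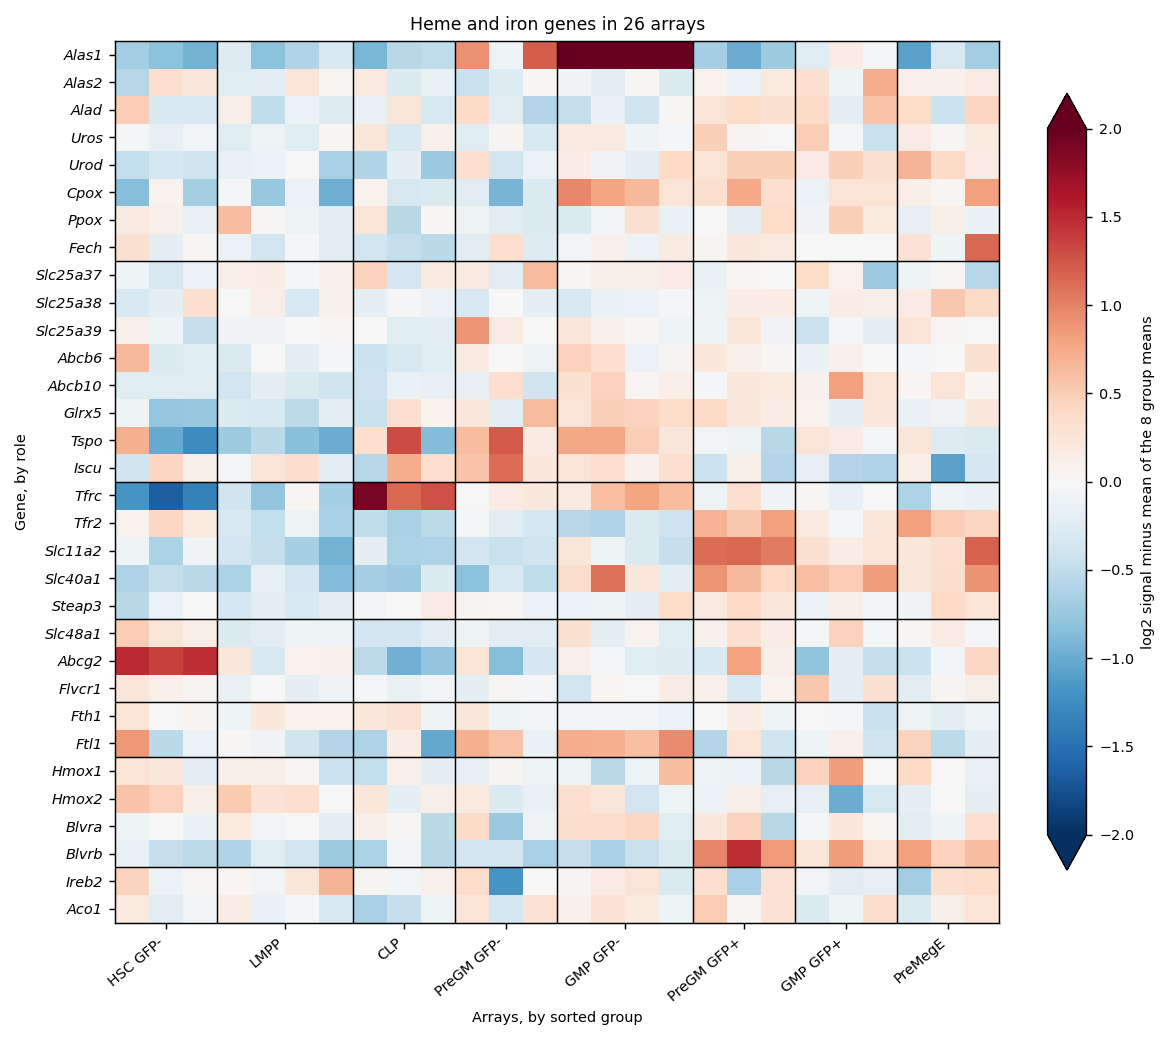
Each column is 1 array, grouped by sorted population, and each row 1 gene, grouped by role; colour gives the log2 signal minus the mean of the 8 group means, clipped at 2 on either side. Alas1 stands out in all 4 GMP GFP- arrays, Tfrc in CLP and Abcg2 in HSC GFP-. Slc11a2 and Blvrb have their highest means in PreGM GFP+, followed by PreMegE.

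In the first step of heme synthesis, the housekeeping isozyme was called in several comparisons and the erythroid one in none. Alas1 had log2 signals of 10.18, 10.57, 10.22 and 10.56 in the 4 GMP GFP- arrays, above every other array of the series. PreGM GFP- followed with 8.50, 7.49 and 8.80. GMP GFP+ arrays were at 7.34, 7.75 and 7.57, and the arrays of HSC GFP-, LMPP, CLP, PreGM GFP+ and PreMegE lay between 6.50 and 7.32. The rank after PreGM GFP- is close: all GMP GFP+ arrays lay above those 5 groups, the nearest by less than the spread within GMP GFP+, and PreGM GFP- array 2 lay inside the GMP GFP+ range.

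Among reporter-negative progenitors Alas1 was higher in PreGM GFP- than in LMPP by 1.18 (SE 0.23, limma adjusted p = 0.0102). From PreGM GFP- to GMP GFP- it rose by a further 2.12 (SE 0.23, adjusted p = 4.77e-06), a 4.35-fold difference in signal. The first of these calls was lost when PreGM GFP- array 1 or 3 was left out (adjusted p = 0.0712 and 0.0914), with array weights (0.0804) and with the spread of these groups alone (0.183). In reporter-positive cells Alas1 was lower, by 2.83 in GMP (SE 0.23, adjusted p = 1.42e-08; 7.11-fold) and by 1.47 in PreGM (SE 0.25, adjusted p = 8.69e-04; 2.77-fold). With only the PreGM arrays used to estimate the spread the latter had an adjusted p of 0.0708. The neutrophil markers, like Alas1, were highest in GMP GFP-. The mean log2 signal of the 13 genes was 9.46 to 10.82 in GMP GFP- arrays and 8.03 to 8.84 in GMP GFP+. It was 8.03 to 8.44 in PreGM GFP- and 6.78 to 8.00 in PreGM GFP+. The markers had similar means in PreGM GFP- and GMP GFP+ (8.28 and 8.37), where Alas1 had means of 8.26 and 7.55. The same markers were at 7.96 to 8.54 in PreMegE, where Alas1 had a mean of 6.88. They were not alike there. Elane, Prtn3 and Ctsg had means of 6.77, 6.83 and 6.85 in PreMegE, against 11.47, 10.44 and 12.07 in GMP GFP-. Mpo was at 9.46 in PreMegE, and S100a8, S100a9 and Ngp were at 10.86, 11.76 and 10.51. The part of the neutrophil markers in the Alas1 differences was not tested.

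Alas2, the erythroid isozyme, had means between 6.84 in PreGM GFP- and 7.37 in GMP GFP+. PreMegE arrays were at 7.16, 7.14 and 7.23, inside the range of HSC GFP- (6.48 to 7.38), and the F test did not pass (adjusted p = 0.564). In GMP, Alas2 was higher with the reporter by 0.45 (interval 0.04 to 0.86, limma adjusted p = 0.172), which was not called. The interval of the PreMegE difference from HSC GFP- was -0.31 to 0.56, so a rise of 1 log2 unit in signal lies outside it. Alas2 was read from 1 probe set, with group means little above the median of all values, 6.61. A difference in such signals may not equal that of RNA, so a rise in RNA of that size is not excluded.

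The middle and late enzymes had smaller differences. Cpox, which makes protoporphyrinogen, was 8.54, 8.36, 8.22 and 7.83 in GMP GFP-, 7.90, 8.34 and 7.90 in PreGM GFP+ and 7.71, 7.62 and 8.39 in PreMegE. It was 7.36, 6.64 and 7.30 in PreGM GFP- and 6.59 to 7.65 in LMPP and HSC GFP-. GMP GFP+ (7.45, 7.84 and 7.84) and CLP (7.26 to 7.64) had means in between. Thus the high groups include one without the reporter, and the order differs from that of Alas1, which was low in PreGM GFP+ and PreMegE. Cpox was higher in GMP GFP- than in PreGM GFP- by 1.14 (SE 0.26, limma adjusted p = 0.0262), but this call was lost without GMP GFP- array 1, 2 or 3 (adjusted p = 0.0961, 0.0814 and 0.0584), without PreGM GFP- array 2 (0.209) and with array weights (0.281). The difference of PreGM GFP+ from PreGM GFP- was 0.95 (SE 0.28, adjusted p = 0.0977), with no overlap between the arrays.

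Urod, the uroporphyrinogen decarboxylase gene, was 8.52, 8.72 and 8.72 in PreGM GFP+ and 8.93, 8.63 and 8.40 in PreMegE, against 7.75, 7.89 and 7.84 in HSC GFP-. Reporter-positive GMP were at 8.41 to 8.72, and CLP were lowest at 7.51 to 8.05. PreMegE exceeded HSC GFP- by 0.82 (SE 0.19, limma adjusted p = 0.0157). That call was lost without PreMegE array 1 (adjusted p = 0.110), without HSC GFP- array 1 (0.0619) and with the spread of both groups alone (0.0671).

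Alad, Uros, Ppox and Fech did not pass the F test (adjusted p from 0.0966 to 0.837). Fech, which inserts iron into the ring, had means between 6.07 in CLP and 6.98 in PreMegE, with 6 of 8 group means below the median signal. PreMegE array 3 was at 7.68 and the other arrays of that group at 6.83 and 6.44. Alad, the second enzyme, had its highest means in PreGM GFP+ (8.30) and GMP GFP+ (8.24) and its lowest in GMP GFP- (7.74).

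Among the mitochondrial genes Glrx5, a glutaredoxin of iron-sulfur cluster assembly, had its highest mean in GMP GFP- (9.06, 9.26, 9.24 and 9.15) and its lowest in HSC GFP- (8.70, 8.00 and 8.02). Abcb10, an inner membrane transporter needed for heme synthesis in red cells, was 6.97, 7.71 and 7.13 in GMP GFP+ and 6.92 to 7.34 in GMP GFP-, against 6.48 to 6.68 in LMPP and a mean of 6.64 in HSC GFP-. Both passed the F test (adjusted p = 0.0146 and 0.0184), and neither was called in a pairwise comparison with all arrays and the settings used throughout. Glrx5 was called in PreMegE against HSC GFP- with array weights (0.70, adjusted p = 0.0196) and without HSC GFP- array 1 (0.78, adjusted p = 0.0447). The carriers Slc25a37 (mitoferrin-1), Slc25a38 (a glycine carrier) and Slc25a39 had group means within 0.41, 0.52 and 0.56 of each other and did not pass it. Nor did Abcb6.

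Tspo, an outer membrane protein, and Iscu, the scaffold of iron-sulfur clusters, had wide ranges and wide scatter. Tspo was 8.65, 9.26 and 8.22 in PreGM GFP- and 7.04 to 7.49 in LMPP, yet 8.74, 7.03 and 6.77 in HSC GFP-, where array 1 alone was high. Its F test had an adjusted p of 0.0857, and the difference of PreGM GFP- from LMPP, 1.45 (SE 0.40), one of 0.108, or of 0.0403 with the spread of both groups alone. Iscu had its highest mean in PreGM GFP- (10.05, 10.59 and 9.69) and lower in PreGM GFP+ by 0.93 (SE 0.31, adjusted p = 0.176). Its second probe set, not used in the fit, was likewise highest in PreGM GFP- (9.06) and lower in PreGM GFP+ (8.14); its lowest mean was in PreMegE (7.83) and that of the first in GMP GFP+ (9.02).

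In iron uptake the 2 transferrin receptors had different profiles. Tfrc, the receptor of most dividing cells, was 10.77, 10.02 and 10.17 in CLP, above every other array. It was 7.70, 7.23 and 7.53 in HSC GFP-, below every other array. Between these, GMP GFP- arrays were at 9.05 to 9.66, PreGM GFP- at 8.89 to 9.09, PreGM GFP+ at 8.77 to 9.21, GMP GFP+ at 8.71 to 8.90, PreMegE at 8.26 to 8.77 and LMPP at 8.09 to 8.92, so neighbours in the middle overlap or nearly touch.

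Tfrc rose from HSC GFP- to LMPP by 0.94 (SE 0.20, limma adjusted p = 0.00964) and from LMPP to CLP by 1.89 (SE 0.20, adjusted p = 2.48e-06; 3.72-fold). It was also higher in PreMegE than in HSC GFP-, by 1.11 (SE 0.21, adjusted p = 0.00288). The LMPP call was lost without HSC GFP- array 2 (adjusted p = 0.0767). With the spread of the compared groups alone, the calls of Tfrc in LMPP and in PreMegE were lost too (0.0920 and 0.0506).

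Tfr2, a second transferrin receptor and partner of the erythropoietin receptor in red cell precursors, was 7.33, 7.17 and 7.45 in PreGM GFP+ and 7.45, 7.12 and 7.06 in PreMegE. HSC GFP- (6.71, 7.06 and 6.83) and GMP GFP+ (6.81, 6.61 and 6.88) followed. Arrays of PreGM GFP-, LMPP, GMP GFP- and CLP lay between 5.98 and 6.60, with all 4 means below the median signal. Tfr2 was higher in reporter-positive cells by 0.89 in PreGM (SE 0.14, limma adjusted p = 5.89e-04) and by 0.60 in GMP (SE 0.13, adjusted p = 0.00664). It fell from HSC GFP- to LMPP by 0.62 (SE 0.13, adjusted p = 0.0113), a call lost without HSC GFP- array 2 (adjusted p = 0.0909), without LMPP array 4 (0.0530) and with the spread of both groups alone (0.128).

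Slc11a2, which encodes the iron transporter DMT1, had its highest mean in PreGM GFP+, with arrays at 8.21, 8.23 and 8.13. PreGM GFP- was at 6.70, 6.65 and 6.69, and the difference was 1.51 (SE 0.22, limma adjusted p = 1.27e-04; 2.85-fold). In GMP the arrays of the reporter groups overlapped, with 7.40, 7.24 and 7.35 against 7.33, 6.98, 6.80 and 6.63 (difference 0.40, interval -0.02 to 0.82, adjusted p = 0.239). LMPP, CLP and HSC GFP- arrays lay between 6.15 and 7.02. PreMegE had 1 high array, at 7.32, 7.42 and 8.27. It exceeded HSC GFP- by 0.85 (SE 0.22, adjusted p = 0.0274), a call lost without PreMegE array 3 (difference 0.54, adjusted p = 0.211), without HSC GFP- array 2 (0.156) and with the spread of both groups alone (0.331).

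Slc40a1, the iron exporter ferroportin, was 7.19, 6.96 and 6.71 in PreGM GFP+, 6.92, 6.82 and 7.15 in GMP GFP+, and 6.54, 6.67 and 7.22 in PreMegE. GMP GFP- arrays spread from 6.11 to 7.42, and those of HSC GFP-, LMPP, CLP and PreGM GFP- lay between 5.45 and 6.15, below the median signal. PreGM GFP+ exceeded PreGM GFP- by 1.20 (SE 0.25, limma adjusted p = 0.00741). The call was lost when array 1 of either group was left out (adjusted p = 0.0617 for GFP- and 0.0576 for GFP+) and with array weights (0.106). PreMegE exceeded HSC GFP- by 1.03 (SE 0.25, adjusted p = 0.0182), lost without PreMegE array 3, without HSC GFP- array 1 or 3 (adjusted p = 0.130, 0.0671 and 0.0534) and with the spread of both groups alone (0.0625). In GMP GFP- it was 0.92 above PreGM GFP- (SE 0.23, adjusted p = 0.0472). That call was lost without each of the 7 arrays except GMP GFP- array 4 (adjusted p from 0.0737 to 0.183), with array weights (0.319) and with the spread of both groups alone (0.242). Ferroportin is known best from macrophages, whose 16 marker genes had mean signals of 6.04 to 6.36 in every array and 2 to 4 genes above the median signal in each group. Their range of means was 5.05 to 5.73 for Adgre1 and 5.03 to 5.78 for Spic, but Vcam1 was 7.30 in GMP GFP- against 5.94 to 6.42 elsewhere. Csf1r and Cd68 had their highest means in GMP GFP- (7.96 and 9.04), with PreGM GFP- close behind (7.9 and 8.89). Of these markers 1 of 16 was called higher in GMP GFP- than in PreGM GFP-, 1 lower in PreGM GFP+ than in PreGM GFP- and none in PreMegE against HSC GFP-. Their part in the Slc40a1 differences was not tested. Steap3, the reductase that serves uptake through Tfrc, had its highest mean in PreGM GFP+ (7.52) and did not pass the F test (adjusted p = 0.101).

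**Figure D3:**
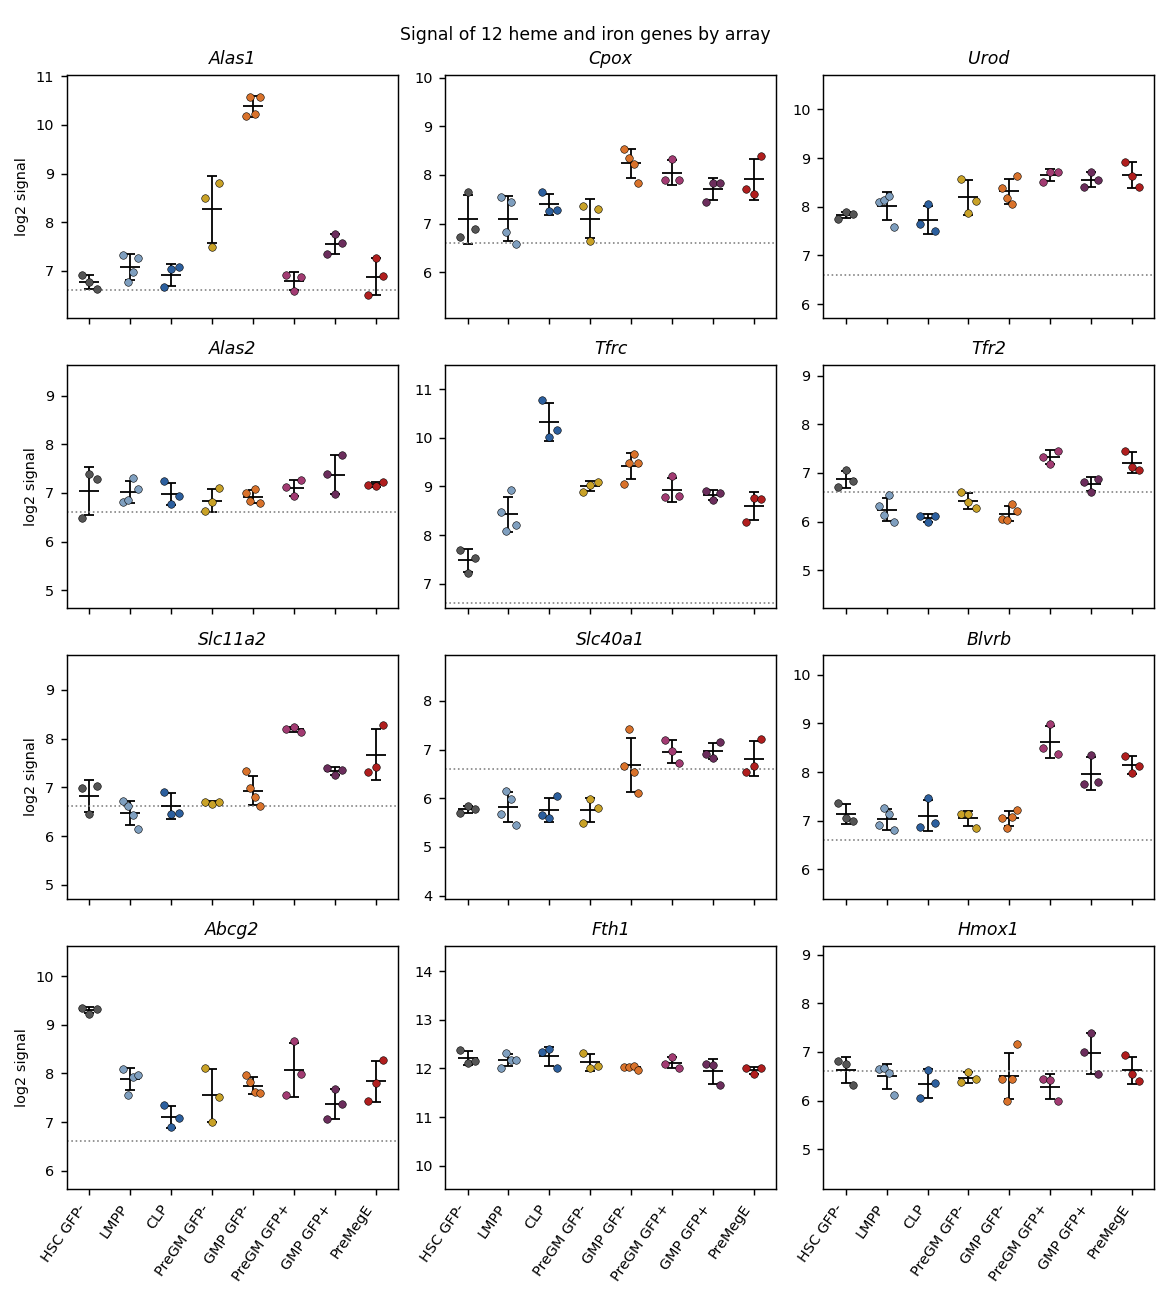
Log2 signal of 12 genes in every array (points), with the mean and SD of each group (bars); all panels span the same number of log2 units, and the dotted line marks the median of all values, 6.61. Alas1 peaks in GMP GFP-, Tfrc in CLP and Abcg2 in HSC GFP-, and Fth1 is level. Tfr2, Slc11a2 and Blvrb have their highest means in PreGM GFP+, and none was called against PreMegE. The highest Slc11a2 array, at 8.27, is in PreMegE.

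Of the heme transporters, Abcg2 was highest in the stem cells. This efflux pump of porphyrins and dyes was 9.35, 9.23 and 9.33 in HSC GFP-, above every other array, and had its lowest mean in CLP, with arrays at 7.34, 6.90 and 7.08. It fell by 1.42 from HSC GFP- to LMPP (SE 0.25, limma adjusted p = 0.00157), and differed by -1.46 between PreMegE and HSC GFP- (SE 0.26, adjusted p = 0.00143). Slc48a1, which carries heme out of endosomes and lysosomes, also had its highest mean in HSC GFP- (8.54, 8.29 and 8.17) and its lowest in CLP (7.66, 7.66 and 7.84). It passed the F test (adjusted p = 0.0289) and no pairwise comparison; its nearest was LMPP against HSC GFP-, at -0.46 (adjusted p = 0.0892). The heme exporter gene Flvcr1 had group means within 0.31 of each other, and its second probe set had means from 6.18 in CLP to 6.89 in PreGM GFP+.

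The ferritin genes of iron storage did not pass the F test. Fth1 means ran from 11.94 in GMP GFP+ to 12.25 in CLP (adjusted p = 0.426). Ftl1, the light chain, was 10.61, 10.60, 10.47 and 10.82 in GMP GFP- and 9.79, 9.99 and 9.48 in GMP GFP+, a difference of -0.87 (SE 0.31, limma adjusted p = 0.0929) without overlap. With the spread taken from these 7 arrays alone its adjusted p was 0.00767. In HSC GFP- array 1 was at 10.75 and the others at 9.34 and 9.77. Another 4 probe sets name Ftl1 beside 2 other genes and were left out of the fit; each had its highest mean in GMP GFP-, from 9.23 to 11.03, and its lowest in CLP.

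In heme breakdown, 1 of 4 genes passed the F test. Blvrb, which encodes biliverdin reductase B, was 8.49, 8.99 and 8.36 in PreGM GFP+, 8.34, 7.98 and 8.13 in PreMegE and 7.75, 8.35 and 7.79 in GMP GFP+. The arrays of the other 5 groups lay between 6.80 and 7.46. No array of the first 3 groups overlapped with those of the other 5. Blvrb was higher in reporter-positive cells by 1.57 in PreGM (SE 0.19, limma adjusted p = 1.47e-05; 2.97-fold) and by 0.91 in GMP (SE 0.18, adjusted p = 0.00224; 1.88-fold), and higher in PreMegE than in HSC GFP- by 1.01 (SE 0.19, adjusted p = 0.00217).

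The heme oxygenases Hmox1 and Hmox2, which open the ring, did not pass the F test (adjusted p = 0.490 and 0.0612), nor did Blvra, the other biliverdin reductase (0.903). Hmox1, the inducible form, had 5 of 8 means below the median signal, and its highest was 6.97 in GMP GFP+. Hmox2, the constitutive form, ran from 8.77 in GMP GFP+ to 9.65 in HSC GFP-. Nor were the genes of the iron sensors called: Ireb2 (adjusted p = 0.905), which encodes iron regulatory protein 2, had an SD of 0.43 within groups and group means within 0.50 of each other, and Aco1 (adjusted p = 0.324), which encodes iron regulatory protein 1, had means from 7.16 in CLP to 7.84 in PreGM GFP+.

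The reporter comparison in PreGM asks how cells of 1 surface gate differ by Gata1 reporter activity. Of the 32 genes 4 were higher in PreGM GFP+, Blvrb, Slc11a2, Slc40a1 and Tfr2, and 1 was lower, Alas1. Over all genes 2.05% were called, 0.908% higher and 1.14% lower. The median difference was 0.21 over the 32 genes and 0.04 over all genes, and 23 of 32 were positive. Of the 8 enzymes of heme synthesis, 7 had positive differences, from 0.20 for Fech to 0.95 for Cpox, none of them called; Alas1 was the exception. The erythroid markers were higher with the reporter in 11 of 14 genes and lower in 0, the mast cell and basophil markers in 5 of 13 and 0, and the neutrophil markers in 0 and 4 of 13. Their part in these differences was not tested.

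In GMP, the gate with FcgRII/III, 2 of the 32 genes were higher in reporter-positive cells, Blvrb and Tfr2, and Alas1 was lower, where 7.27% of all genes were called, 3.22% higher and 4.05% lower. The median difference was -0.07 over the 32 genes and 0.08 over all genes. The largest differences without a call were those of Ftl1 at -0.87, Iscu at -0.71 and Tfrc at -0.59 (SE 0.20, limma adjusted p = 0.0798). Tfrc was called with the arrays centred on their medians (-0.68, adjusted p = 0.0476), with array weights (0.0416), with the spread of both groups alone (0.0457) and without GMP GFP- array 1 (0.0472). Iscu was called with the spread of both groups alone (adjusted p = 0.0158), and with array weights Ftl1 and Hmox1 were called (0.0400 and 0.0287). In this gate 10 of 13 mast cell and basophil markers and 7 of 8 eosinophil markers were higher with the reporter, beside 12 of 14 erythroid markers, and 7 of 13 neutrophil markers were lower. Their part was not tested.

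The 2 reporter differences share no array. Their difference (GMP minus PreGM) was called in 0 of the 32 genes by limma at an adjusted p under 0.05, against 0.702% of all genes (0.517% higher and 0.186% lower), and 6 of the 32 had an unadjusted p under 0.05. Those furthest apart were Cpox, with 0.95 in PreGM and -0.52 in GMP (difference -1.47, interval -2.26 to -0.68, adjusted p = 0.0977), Alas1 (-1.36, interval -2.06 to -0.66, adjusted p = 0.0717) and Slc11a2 (-1.11, interval -1.72 to -0.50, adjusted p = 0.110). Cpox and Slc11a2 were called with the replicate number as a block (adjusted p = 0.0452 and 0.0426) and with the spread taken from these 4 groups alone (adjusted p = 0.0476 and 0.0273). Alas1 was called without PreGM GFP- array 3 (-1.63, adjusted p = 0.0145).

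**Figure D4:**
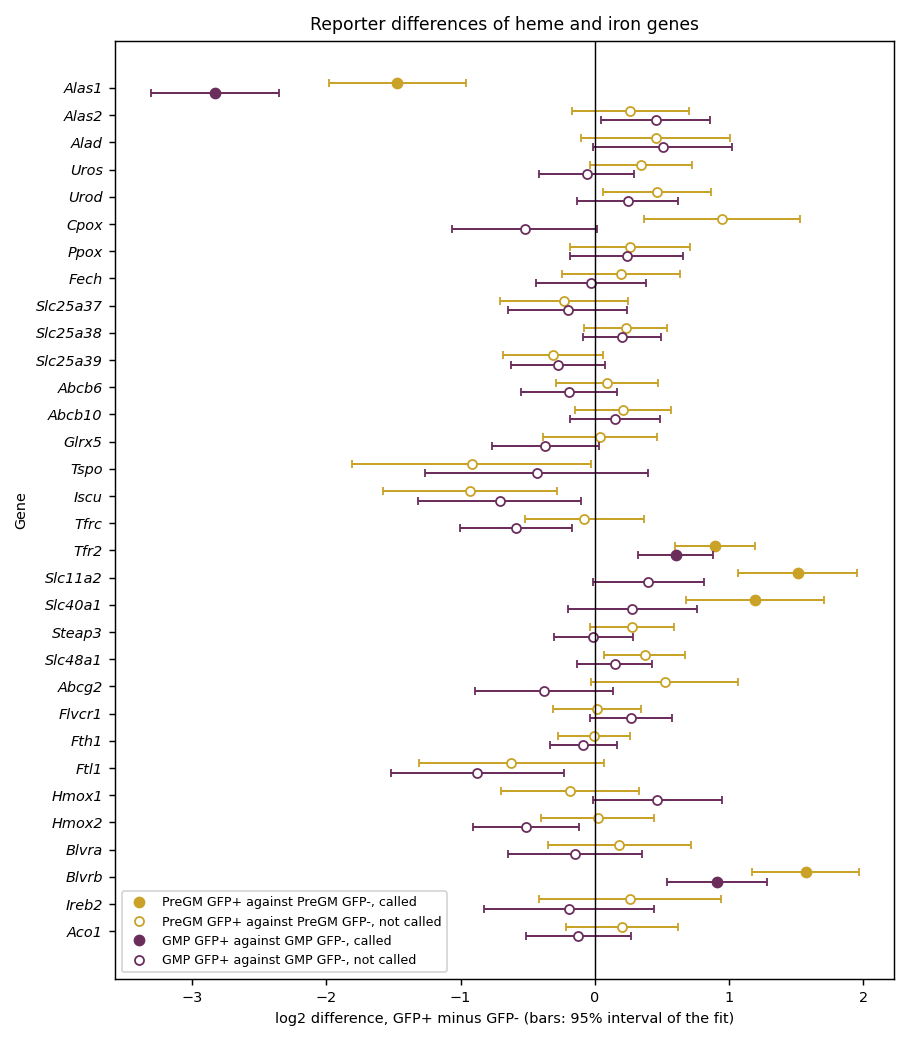
Log2 difference of GFP+ minus GFP- cells for each of the 32 genes in PreGM (ochre) and GMP (purple), with 95% intervals from the fit to all arrays; filled points were called. Alas1 lies left of 0 in both gates, Blvrb and Tfr2 right of 0 in both, and Slc11a2 and Slc40a1 were called in PreGM only, a contrast between gates that did not pass its own test.

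PreMegE are the progenitors of the red cell and platelet lineages. Against HSC GFP-, 5 of the 32 genes were higher in PreMegE, Tfrc, Slc40a1, Blvrb, Slc11a2 and Urod, and Abcg2 was lower, where 3.18% of all genes were called, 0.988% higher and 2.19% lower. With the spread of both groups alone 2 of these calls remained, those of Blvrb and Abcg2. The erythroid markers were higher in PreMegE in 7 of 14 genes and lower in 0, the megakaryocyte markers in 2 of 10 and 0, the neutrophil markers in 6 and 1 of 13, and the stem cell markers in 0 and 6 of 10. Their part was not tested. Alas1, at 6.88 against 6.77, differed by 0.12 (interval -0.40 to 0.63). Cpox differed by 0.82 (SE 0.28, limma adjusted p = 0.140) and Steap3 by 0.42 (adjusted p = 0.169). Cpox was called without HSC GFP- array 2 (1.10, adjusted p = 0.0421), and Slc25a38 without HSC GFP- array 3 (0.61, adjusted p = 0.0205). Against PreGM GFP+, which share the gate apart from CD150 and the reporter, 0 of the 32 genes were called, with 2 at an unadjusted p under 0.05 and 0.0652% of all genes called by limma (0.015% higher and 0.0502% lower). The pair with the lowest p were Slc11a2 at -0.52 and Blvrb at -0.47, both lower in PreMegE. Urod differed by 0.00 with an interval from -0.40 to 0.40.

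PreMegE were also set against GMP GFP+, which like PreGM GFP+ were sorted as reporter-positive. Limma called 1.72% of all genes (0.451% higher and 1.26% lower) and 0 of the 32, with 3 at an unadjusted p under 0.05. The 3 were Alas1 (-0.67, adjusted p = 0.300), Tfr2 (0.44, adjusted p = 0.193) and Fech (0.45, adjusted p = 0.532). From PreGM to GMP in reporter-positive cells 0 of 32 were called, with 7 at an unadjusted p under 0.05 and 1.02% of all genes called by limma (0.792% higher and 0.226% lower). Slc11a2 (-0.86, adjusted p = 0.0582) and Tfr2 (-0.55, adjusted p = 0.0780) were nearest. Slc11a2 was called with array weights, with low-signal genes left out, with the replicate block and with the spread of these groups alone (adjusted p = 0.0428, 0.0468, 0.0369 and 0.0194). Tfr2 was called with array weights (-0.60, adjusted p = 0.0167), and Blvrb without GMP GFP+ array 2 (-0.85, adjusted p = 0.0409).

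From PreGM to GMP in reporter-negative cells 3 of 32 were higher in GMP GFP-, Alas1, Cpox and Slc40a1, and 0 lower, against 1.39% of all genes called, 0.918% higher and 0.471% lower. From LMPP to PreGM GFP- 1 gene, Alas1, was higher and 0 lower, against 0.873% of all genes called, 0.396% higher and 0.476% lower. From HSC GFP- to LMPP, Tfrc was higher and Tfr2 and Abcg2 lower, 1 and 2 of 32, against 2.32% of all genes called, 1.03% higher and 1.28% lower. The stem cell markers were lower in LMPP in 7 of 10 genes and the lymphoid markers higher in 2 of 11. From LMPP to CLP 1 gene, Tfrc, was higher and 0 lower, against 1.57% of all genes called, 0.828% higher and 0.747% lower. The lymphoid markers were higher in CLP in 8 of 11 genes and the stem cell markers lower in 4 of 10. The part of these markers in the Tfrc, Tfr2 and Abcg2 differences was not tested. Comparisons share groups: LMPP enters 3 of them.

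Of 57 other genes of the pathway 50 were measured, and 10 of them passed the F test. Trf, the transferrin gene itself, fell in PreGM GFP+ by 1.74 (SE 0.24, limma adjusted p = 1.10e-04), from 9.37 to 7.62, and was the 1 of 50 called there. In GMP, Trf differed by -0.08, and the difference between the gates passed its test (1.67, SE 0.34, adjusted p = 0.0137), 1 of 50. GMP GFP+ had 1 of 50 higher, the red cell membrane gene Epb42 (0.42, from 5.71 to 6.13, both below the median signal), and 2 lower, the mitochondrial chaperone gene Hspa9 (-0.66) and Pcbp1 (-0.79), which encodes an iron chaperone. PreMegE against GMP GFP+ had 0 of 50 higher and 3 lower, Trf (-1.54), the ferredoxin gene Fdx1 (-1.14) and Ncoa4 (-0.67), the receptor that takes ferritin to the lysosome. Fdx1 was also lower in PreMegE than in PreGM GFP+ (-1.13, adjusted p = 0.0442). From LMPP to CLP 1 of 50 was higher, Cd163 (0.75, from a mean below the median signal), which encodes the hemoglobin scavenger receptor. In the other 5 comparisons none of the 50 was called by limma, with 4 to 8 at an unadjusted p under 0.05 in each.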

How the data were processed

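The authors deposited 1 log2 signal for each probe set on each array. The submitters' processing notes name RMA and oligo and give no more, so base 2 was taken as the one RMA uses, for values of 2.0 to 14.31. No build is given in the sources used here. Of 35556 probe sets, 21789 name 1 gene and were used, 1621 name several and 12146 name none in GEO's platform annotation, made for an earlier version of the array than the labels name. All groups were fitted together with limma 3.58.1 (R 4.3.3) over 19938 genes, with 1 coefficient for each of the 8 groups and moderated tests; p-values were adjusted by Benjamini-Hochberg across those genes. Calls are at 0.05, and intervals are 95%. The number of arrays limits the precision. The code was tested on simulated data. The genes, the marker and pathway lists and the comparisons were chosen with earlier results of these data known. All 32 genes may be named; of the other pathway genes at most 4 per comparison are, those called with the largest differences. Alternatives were array centring, the mean of probe sets, a filter on low signals, array weights, a replicate block, an intensity trend, the spread of the compared groups alone and leaving out each array.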

Additional observations from a re-analysis of the deposited data

Results flagged for a closer look

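Among the 64 sets of 4 arrays (32 genes in LMPP and GMP GFP-), 2 held an array far from the other 3 by Dixon's 95% criterion, where chance flags about 1 in 20. Fth1 in GMP GFP- array 4 was 11.98 and the others were at 12.04, a gap of little size. Blvra in GMP GFP- array 4 was 7.36, and the other arrays were at 7.95 to 8.02.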

How the results depend on the processing

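The 22 calls of single genes in pairwise comparisons kept their sign in all 297 refits that gave them a value. With the low-signal filter, the intensity trend and the spread of the compared groups alone, the sign could not change. Nor could it with the mean of probe sets, as each called gene had 1 usable probe set. Of the refits, 260 kept the call and 37 lost it, and 11 calls were lost in none. Those 11 were Alas1, Blvrb and Tfr2 in the GMP reporter comparison, Blvrb, Slc11a2 and Tfr2 in that of PreGM, Alas1 from PreGM GFP- to GMP GFP-, Blvrb in PreMegE against HSC GFP-, Abcg2 in both of its comparisons and Tfrc from LMPP to CLP. The count of genes called moved as follows. With array weights it was 6 in the GMP reporter comparison, where Ftl1, Hmox1 and Tfrc were added, 1 from PreGM GFP- to GMP GFP-, 2 from PreGM GFP+ to GMP GFP+ and 0 from LMPP to PreGM GFP-. With the spread of the compared groups alone it was 6 in GMP, 2 for the difference of the reporter effects, 2 for PreMegE against HSC GFP-, 1 from PreGM GFP+ to GMP GFP+ and 1 from HSC GFP- to LMPP. With low-signal genes left out it was 1 from PreGM GFP+ to GMP GFP+. Replicate numbers did not pair the arrays throughout: correlations of deviations between same-numbered arrays ranged from -0.26 to 0.33. In PreGM GFP- against LMPP they were 0.1 to 0.33, and -0.29 to 0.16 between arrays of different numbers. In GMP GFP+ against PreGM GFP+ they were 0.02 to 0.23, and -0.24 to 0.07 between different numbers. In GMP GFP- against PreGM GFP- the highest, 0.31, joined arrays of different numbers. Whether some groups share a batch by replicate number was not tested. With the replicate block the count was 2 for the difference of the reporter effects and 1 from PreGM GFP+ to GMP GFP+, and the other counts stayed within 1.5 times. Leaving out 1 array gave 11 to 14 genes in the F test, 4 to 5 in the PreGM and 3 to 4 in the GMP reporter comparison, 0 to 1 for their difference, 4 to 6 for PreMegE against HSC GFP-, 1 to 3 from PreGM GFP- to GMP GFP-, 0 to 1 from PreGM GFP+ to GMP GFP+, 0 to 1 from LMPP to PreGM GFP-, 1 to 3 from HSC GFP- to LMPP and 1 to 2 from LMPP to CLP, where Tspo was added without CLP array 3. In the others it stayed at 0. The causes of these changes were not tested. Signal near the median of all values limits Tfr2, Slc40a1, Hmox1, Fech and Abcb6, and also Alas2, Uros, Ppox, Slc25a38 and Abcb10.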
